A study of Mus musculus with 8 samples.

Results

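The D-type cyclins, their kinases, the inhibitors of these kinases and the retinoblastoma gene *Rb1* form the group of 10 genes described here. They were picked by name from a table of 33971 genes, with the diet comparison of the same brains already known, so their differences between diets are given as a description and without a P value. All 10 genes were found, each under a single gene identifier, and all 10 had enough reads to enter the comparison of 19367 genes. The brains came from WT mouse embryos at E14.5, with 4 embryos whose mothers were placed on a choline-deficient diet (CDD) at mating and 4 embryos of WT mothers on normal chow (ND). Whole brains were used, so every cell type of the brain contributed, and messenger RNA was enriched by its poly-A tail. Neither the number of dams and litters nor the sex of the embryos was given in the labels, so the spread between these brains may be smaller than that between litters.

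During G1, cyclin D1, D2 or D3 binds CDK4 or CDK6, and the active kinase phosphorylates the retinoblastoma protein, which then releases E2F transcription factors that switch on genes for DNA replication. INK4 inhibitors such as p18 (*Cdkn2c*) and p19 (*Cdkn2d*) bind CDK4 and CDK6 directly, whereas the CIP/KIP inhibitors p27 (*Cdkn1b*) and p57 (*Cdkn1c*) act on cyclin and kinase complexes. In the embryonic brain, D-type cyclins are used by dividing progenitors, and inhibitors of both families accompany the exit of newborn neurons from the cell cycle.

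Library totals were between 31770217 and 43121170 reads counted on genes, and the 10 genes held between 576 reads (*Cdkn2c*) and 28229 reads (*Ccnd2*) in a brain. Markers of radial glia (10 genes), intermediate progenitors (5 genes) and neurons (10 genes) were all above 3 reads in every brain, so the defining markers of embryonic brain were present. One library stood apart: 14 Hox genes, which mark caudal hindbrain and spinal cord, summed to 127 CPM (reads per gene scaled to a common library total) in CDD replicate 2 and to between 0.163 and 2.87 CPM in the other CDD brains and between 0.0938 and 0.723 CPM in the ND brains. Values without this library are therefore given for the main results.

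Sequence letters were read for the promoters of these genes and of other genes of the G1/S pathway, because E2F is the factor that the cyclin D kinases release. RefSeq windows (GRCm38.p6) of 250 bases before to 50 after a gene start were available for *Ccnd3*, *Cdk4*, *Cdk6*, *Cdkn1b*, *Cdkn2c* and *Cdkn2d*. The set of windows at hand held none for *Ccnd1*, *Ccnd2*, *Cdkn1c* and *Rb1*, so the promoters of these genes were not searched. The E2F motif was searched on both strands in 4 spellings, TTTCCCGC, TTTCGCGC, TTTGCCGC and TTTGGCGC, which 744 of 32851 windows (2.26%) held. None of the 8 windows of these 6 genes held it, which at that share does not set them apart from other genes. Counted per gene, 704 of 27025 genes (2.6%) held it, and 16 of 37 other genes of the pathway lists that had a window. Among the 37 are 14 genes listed as E2F targets, of which 7 held it. These 16 include genes that did not pass the test between diets, such as *Cdk2*, *E2f3*, *Tfdp1*, *Cdc6* and *Cdk1*. Outside the E2F target list, 4 pathway genes passed the test between diets, of which *Tfdp2* had windows without the motif. The following stretches come from the other 3, each written on the gene's own strand with 1 match to the motif in capitals. The window of *Mycn* held 3 matches, and the second overlaps the end of the one marked.
*Rbl1*, chr2:157204535-157204562, minus strand: agaaggcgatTTTCGCGCgctttgtcgc
*Cdc25a*, chr9:109875502-109875529, plus strand: gtgaattccgTTTGGCGCcaactaggaa
*Mycn*, chr12:12942002-12942029, minus strand: gcaaatggctTTTGGCGCgaaaggcttt
A match of letters is a description and says nothing about binding in these brains.

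Levels of the 10 transcripts were first compared per length, with the authors' FPKM, which divides by the listed gene length. The order over all 8 brains ran from *Cdk4* (mean 102 FPKM) over *Ccnd2* (64.7), *Cdkn1c* (63.4), *Cdkn1b* (31.0), *Cdkn2d* (18.5), *Rb1* (15.1), *Ccnd1* (12.3), *Cdkn2c* (6.86) and *Cdk6* (4.29) to *Ccnd3* (4.13). Thus the main cyclin, kinase and inhibitor transcripts were *Ccnd2*, *Cdk4* and *Cdkn1c*. Brains overlapped between the neighbours *Ccnd2* and *Cdkn1c* and between *Cdk6* and *Ccnd3*, so these neighbours were not ordered beyond their spread. *Cdkn2d*, *Rb1* and *Ccnd1* were separated in ND brains, at 19.0 to 19.6, 14.2 to 14.6 and 9.38 to 10.9 FPKM, but each overlapped with its neighbour in CDD brains.

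The cyclin transcripts *Ccnd1* and *Ccnd2* were higher under CDD than under ND, and *Ccnd3* differed by less than the spread between brains. *Ccnd1* (ENSMUSG00000070348, chromosome 7, 144483668 to 144493662, minus strand, on the unnamed build of the authors' table) encodes cyclin D1, an integrator of mitogen signals. It was at 66.3, 70.6, 62.3 and 72.8 CPM in CDD replicates 1 to 4 and at 48.9, 51.8, 46.9 and 44.4 CPM in ND replicates 1 to 4. Every CDD brain was above every ND brain, and the means of 68.0 ± 4.64 and 48.0 ± 3.12 CPM (SD, n = 4 each) lay further apart than the spread within either diet. The log2 fold change was 0.50 (standard error 0.057), a 1.42-fold difference. *Ccnd2* (ENSMUSG00000000184, chromosome 6, 127102125 to 127129156, minus strand) encodes cyclin D2, a D-type cyclin of cortical progenitors. It was at 650, 631, 656 and 842 CPM in CDD replicates 1 to 4 and at 517, 571, 499 and 525 CPM in ND replicates 1 to 4. The groups did not overlap, but CDD replicate 4 stood far above the other CDD brains. For *Ccnd2*, the log2 fold change was 0.40 (standard error 0.081), a 1.32-fold difference, and 0.29 without CDD replicate 4, when the gene was still called. *Ccnd3* (ENSMUSG00000034165), the cyclin best known from lymphocytes, ranged from 34.5 to 38.0 CPM under CDD and from 35.7 to 37.5 CPM under ND, and its log2 fold change was 0.0052 (95% interval -0.11 to 0.12). Without CDD replicate 2, whose Hox genes were high, the log2 fold change was 0.48 for *Ccnd1* and 0.44 for *Ccnd2*.

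**Figure D1:**
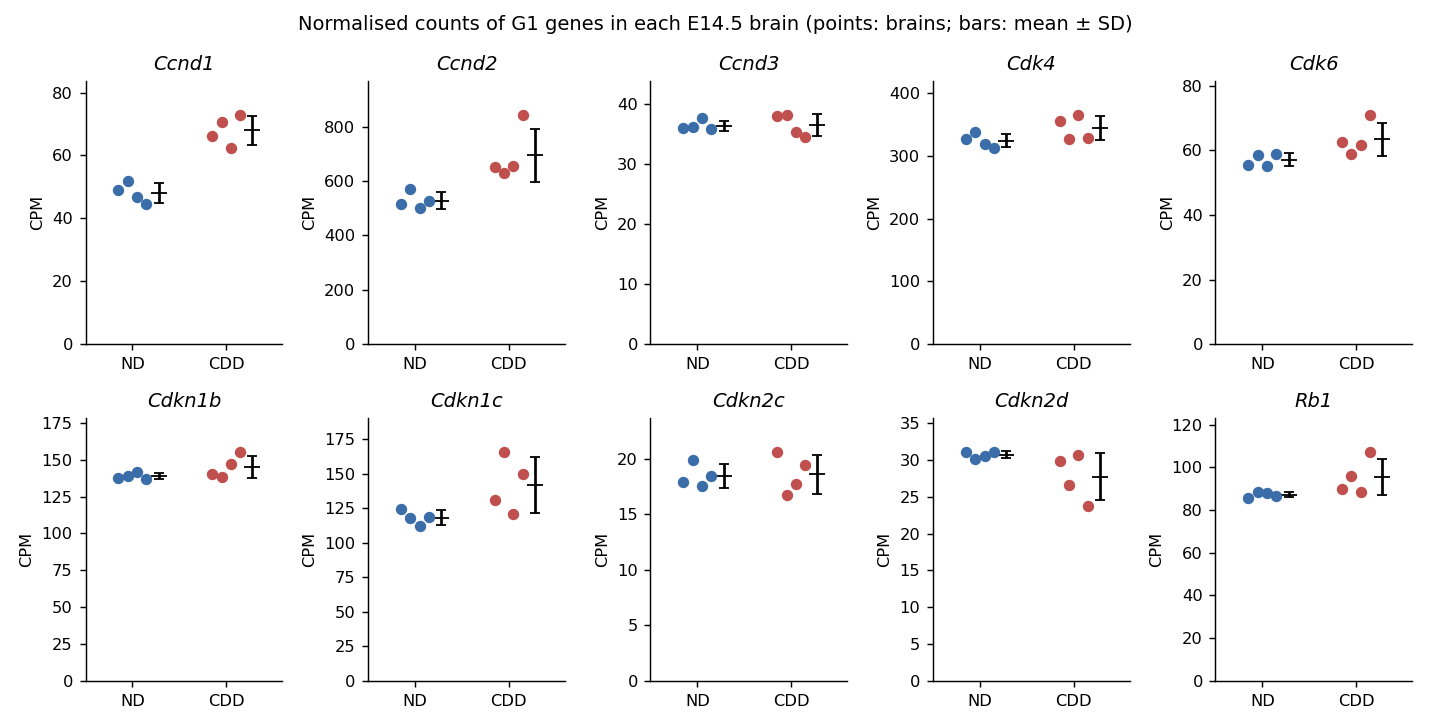
CPM of the 10 G1 genes in each brain (vertical axes); each point is 1 brain, the black bar is the mean with its SD (n = 4 per diet), and each vertical axis starts at 0. The CDD points of *Ccnd1* and *Ccnd2* lie above all ND points, and for the other 8 genes the diets overlap.

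Of the 10 genes, 2 were called in edgeR's quasi-likelihood test (Benjamini-Hochberg adjustment across the whole table, threshold 0.05), *Ccnd1* and *Ccnd2*, both higher in CDD brains, where 4.24% of all tested genes were called in that direction. None was called lower, where 4.59% of all genes were. Every CDD brain was above every ND brain for the same 2 genes, as for 7.65% of all tested genes, and for 0 of the 10 genes every CDD brain was below, as for 7.39% of all. Since the genes were picked with this comparison known, these counts describe them and support nothing further. The log2 fold changes of the 10 genes had a median of 0.11, with 9 above 0 and 1 below, beside a median of -0.0038 over all genes tested. *Ccnd1* lay above 98.0% and *Ccnd2* above 96.5% of all log2 fold changes. In bulk RNA, a larger share of cells that express a gene and more of its RNA per cell cannot be told apart.

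**Figure D2:**
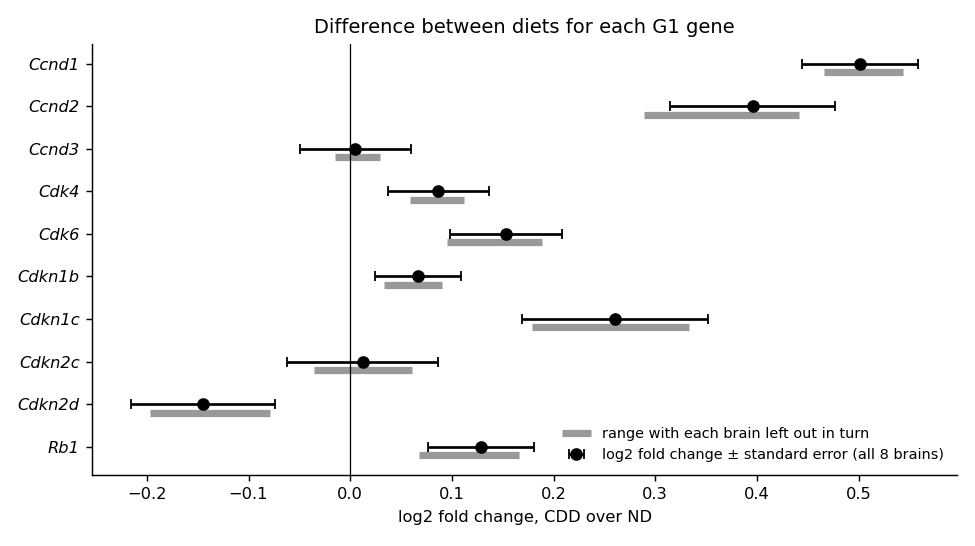
Log2 fold change of CDD over ND (horizontal axis) for each of the 10 genes; points with bars are the estimate and its standard error from all 8 brains, and grey bars span the estimates of the 8 fits that leave out 1 brain. The ranges of *Ccnd1* (0.47 to 0.54) and *Ccnd2* (0.29 to 0.44) stay above those of *Ccnd3*, *Cdk4*, *Cdk6*, *Cdkn1b*, *Cdkn2c*, *Cdkn2d* and *Rb1*, and that of *Cdkn1c* reaches 0.33.

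The shares of the cyclin D transcripts within a brain do not depend on how libraries are scaled, whereas their summed FPKM does. The FPKM of *Ccnd1*, *Ccnd2* and *Ccnd3* summed to 86.7, 86.1, 86.6 and 109 in CDD replicates 1 to 4 and to 69.1, 75.4, 66.7 and 68.9 in ND replicates 1 to 4. Most of this sum was *Ccnd2* under both diets, with a mean of 79.7% under CDD and of 79.6% under ND (SD 1.94 and 0.780, n = 4 each). *Ccnd1* made up a mean of 15.7% under CDD, 1.24 percentage points more than under ND (SD 1.34 and 0.606, n = 4 each), with overlap, and 0.689 points more without CDD replicate 2. *Ccnd3* took a smaller share in each CDD brain, 4.94, 5.02, 4.63 and 3.61%, than in any ND brain, 5.89, 5.44, 6.36 and 5.87%. The level of *Ccnd3* itself did not separate the diets, whereas the sum that its share is taken of did. The log2 ratio of *Ccnd2* to *Ccnd1* counts was 3.35 ± 0.158 in CDD and 3.46 ± 0.0741 in ND brains (SD, n = 4 each) and overlapped between diets.

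**Figure D3:**
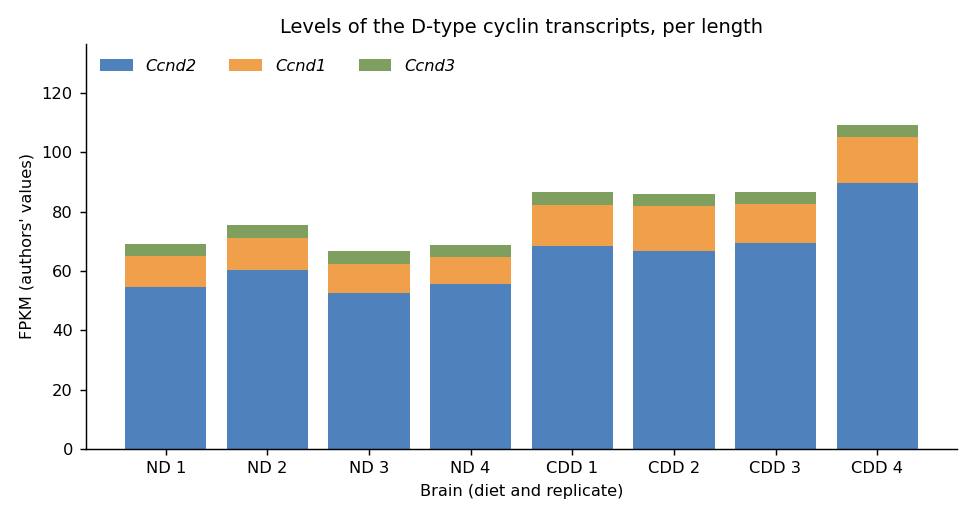
Stacked FPKM (vertical axis, the authors' values) of *Ccnd2*, *Ccnd1* and *Ccnd3* in each of the 8 brains. The 4 CDD bars reach 86.1 to 109 FPKM and the 4 ND bars 66.7 to 75.4 FPKM, and *Ccnd2* is the largest part of each bar.

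Neither kinase transcript was called. *Cdk4* (ENSMUSG00000006728) ranged from 327 to 365 CPM under CDD and from 313 to 338 CPM under ND, and its log2 fold change was 0.09 (95% interval -0.017 to 0.19). *Cdk6* (ENSMUSG00000040274) was at 62.6, 58.9, 61.6 and 70.9 CPM in CDD replicates 1 to 4 and at 55.5, 58.7, 55.2 and 59.1 CPM in ND replicates 1 to 4. CDD replicate 2 lay within the ND values and CDD replicate 4 was the highest. The log2 fold change of *Cdk6* was 0.15 (standard error 0.055), and 0.095 without CDD replicate 4. The log2 ratio of *Cdk6* to *Cdk4* counts was -2.44 ± 0.155 in CDD and -2.51 ± 0.0672 in ND brains (SD, n = 4 each), a difference within the spread that was negative without CDD replicate 4.

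Among the CIP/KIP inhibitors, *Cdkn1c* (ENSMUSG00000037664, chromosome 7, 143012076 to 143014787, minus strand), an imprinted gene expressed from the maternal allele, differed more between CDD than between ND brains (SD 20.1 and 5.22 CPM, n = 4 each). It was at 131, 166, 121 and 150 CPM in CDD replicates 1 to 4 and at 125, 118, 112 and 118 CPM in ND replicates 1 to 4. CDD replicate 3 was below ND replicate 1, and CDD replicate 2, the library with high Hox genes, was the highest. Its log2 fold change of 0.26 (standard error 0.091) was not called, although the unadjusted 95% interval of 0.054 to 0.47 lay above 0. *Cdkn1c* was called by DESeq2, without a filter on low counts and without CDD replicate 3 (0.33), and was at 0.18 without CDD replicate 2. *Cdkn1b* (ENSMUSG00000003031), which encodes p27, overlapped between diets, at 139 to 155 CPM under CDD and 137 to 141 CPM under ND, and its log2 fold change was 0.07 (95% interval -0.022 to 0.16), and 0.033 without CDD replicate 4. Relative to *Cdkn1b* in the same brain, *Ccnd1* was higher in each CDD brain: the log2 count ratio was -1.08, -0.97, -1.24 and -1.09 in CDD replicates 1 to 4 and -1.49, -1.42, -1.59 and -1.62 in ND replicates 1 to 4. Relative to *Cdkn1c* the ratio overlapped between diets, at -1.05 ± 0.125 in CDD and -1.30 ± 0.100 in ND brains (SD, n = 4 each).

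Neither INK4 inhibitor was called. *Cdkn2d* (ENSMUSG00000096472), which encodes p19, was the only one of the 10 genes with a log2 fold change below 0 (-0.14, 95% interval -0.29 to 0.0034). It was at 29.9, 26.6, 30.7 and 23.8 CPM in CDD replicates 1 to 4 and at 31.0, 30.1, 30.6 and 31.1 CPM in ND replicates 1 to 4. CDD replicates 1, 2 and 4 were below every ND brain, whereas CDD replicate 3 lay within the ND values. Without CDD replicate 4, its lowest brain, the log2 fold change was -0.079. *Cdkn2c* (ENSMUSG00000028551), which encodes p18, ranged from 16.7 to 20.6 CPM under CDD and from 17.5 to 19.9 CPM under ND, and its log2 fold change was 0.01 (95% interval -0.14 to 0.17).

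*Rb1* (ENSMUSG00000022105), the substrate of the cyclin D kinases, was at 90.1, 95.8, 88.4 and 107 CPM in CDD replicates 1 to 4 and at 85.7, 88.4, 87.8 and 86.8 CPM in ND replicates 1 to 4. CDD replicate 3 and ND replicate 2 had nearly the same value, and CDD replicate 4 was again the highest. The log2 fold change was 0.13 (standard error 0.052) and not called, although the unadjusted 95% interval of 0.019 to 0.24 lay above 0. It was 0.07 without CDD replicate 4 and 0.17, then called, without CDD replicate 3. The longest identical run between GENCODE M21 transcripts of related members was 28 bases (*Cdk4* and *Cdk6*), with 20 bases between *Ccnd1* and *Ccnd2*. Genes on the opposite strand overlap several members in the authors' table, and whether strand was used in counting is not given in the sources used here. They include *LTO1* over 1771 bases of *Ccnd1* (26.4 CPM, log2 fold change -0.10), *Bysl* over 361 bases of *Ccnd3* (43.6 CPM), *Tspan31* over 641 bases of *Cdk4* (38.9 CPM) and *Rcbtb2* over 24171 bases of *Rb1* (74.3 CPM). These bases are counted between gene start and end, introns included, and the listed length of *Rb1* is 6015 bases. Without strand, the reads of such a pair cannot be told apart where their exons overlap, and that length was not measured.

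The rest of the G1/S pathway was followed in 44 genes listed by role, of which 42 were tested. Of these, 16 were higher and 1 lower in CDD brains in the same edgeR test, with a median log2 fold change of 0.17 (37 above 0, 5 below). Over all tested genes, 4.24% were called higher and 4.59% lower, and for 7.39% every CDD brain was below every ND brain. Without CDD replicate 2, 16 of the pathway genes were higher and 0 lower. In the list for cyclin E and CDK2, *Cdc25a*, a phosphatase that activates CDK2, was higher (log2 fold change 0.21, standard error 0.054, adjusted p = 0.0229 with edgeR). The other 3 genes of this list, *Ccne1*, *Ccne2* and *Cdk2*, were not called, at log2 fold changes of 0.11 to 0.14. The other pocket protein genes went apart. *Rbl1*, which encodes p107, was at 39.0, 33.9, 40.1 and 40.1 CPM in CDD replicates 1 to 4 and at 30.6, 32.5, 30.8 and 29.7 CPM in ND replicates 1 to 4 (log2 fold change 0.31, standard error 0.062, adjusted p = 0.00515 with edgeR). *Rbl2*, which encodes p130 and is associated with resting cells, was at 37.9, 37.2, 36.1 and 38.9 CPM in CDD and 42.2, 41.4, 43.7 and 40.2 CPM in ND replicates 1 to 4, without overlap, but was not called (log2 fold change -0.16, adjusted p = 0.0657 with edgeR). *Rbl2* was called by DESeq2 and was named after its values were seen. *Tfdp2*, a dimer partner of E2F, was higher (log2 fold change 0.29, standard error 0.058, adjusted p = 0.00544 with edgeR), and the other partner gene was not called.

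None of the 3 activator and 5 repressor E2F genes passed the threshold in edgeR's test, although 2 activators were higher at an unadjusted p under 0.05 and 1 was called by DESeq2. Of the repressors, 0 were called by either tool or at the unadjusted threshold. Of the activators, *E2f3* took the most reads and had a log2 difference of 0.17 (adjusted p = 0.149). Of the repressors, *E2f4* took the most reads, with a log2 difference of -0.06 (adjusted p = 0.603). The 6 genes for turnover of cyclins and p27 were not called by edgeR or DESeq2, and 2 were higher at an unadjusted p under 0.05, with *Gsk3b*, a kinase that marks cyclin D1 for degradation, at 0.20 (adjusted p = 0.134). *Mycn*, which drives growth and D-type cyclin expression in neural progenitors, went the other way. It was at 81.3, 76.8, 89.1 and 75.9 CPM in CDD and 91.9, 91.8, 91.0 and 93.9 CPM in ND replicates 1 to 4 (log2 fold change -0.19, standard error 0.049, adjusted p = 0.0224 with edgeR). Every CDD brain was below every ND brain, as for 7.39% of all tested genes. The calls of *Cdc25a* and *Mycn* were lost without ND replicate 1, 3 or 4, and that of *Mycn* also without CDD replicate 2 (log2 fold change -0.16), whereas those of *Rbl1* and *Tfdp2* held in all 8 fits with a brain left out.

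Of 17 E2F target genes, most of which act in DNA replication or nucleotide synthesis, 13 were called higher and none lower in edgeR's test (13 and 0 by DESeq2). Over all tested genes, edgeR called 4.24% higher and 4.59% lower. Among the 13, the calls of *Mcm7*, *Pcna* and *Rrm2* were lost without ND replicate 1, 3 or 4. Those of *Mcm7* and *Pcna* were also lost without CDD replicate 1. The call of *Mybl2* was lost without ND replicate 1 or 3 and that of *Mcm4* without ND replicate 4. The other calls held with each brain left out, and none of the 13 was lost without CDD replicate 2. At an unadjusted p under 0.05, 16 of the targets were higher and 0 lower, with a median log2 fold change of 0.28 (17 of 17 above 0). The smallest p-values were those of *Rrm1*, a subunit of ribonucleotide reductase (log2 fold change 0.32, adjusted p = 0.00156), and of the replication helicase genes *Mcm2* (0.32, adjusted p = 0.00156) and *Mcm5* (0.32, adjusted p = 0.00164). Of the other CDK inhibitors, *Cdkn1a*, which encodes p21, was at 15.3 to 17.0 CPM in CDD brains but at 14.2, 8.03, 13.5 and 7.13 CPM in ND replicates 1 to 4 (log2 fold change 0.58, standard error 0.23, adjusted p = 0.183 with edgeR) and was not called, and *Cdkn2a* and *Cdkn2b* had too few reads to be tested.

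**Figure D4:**
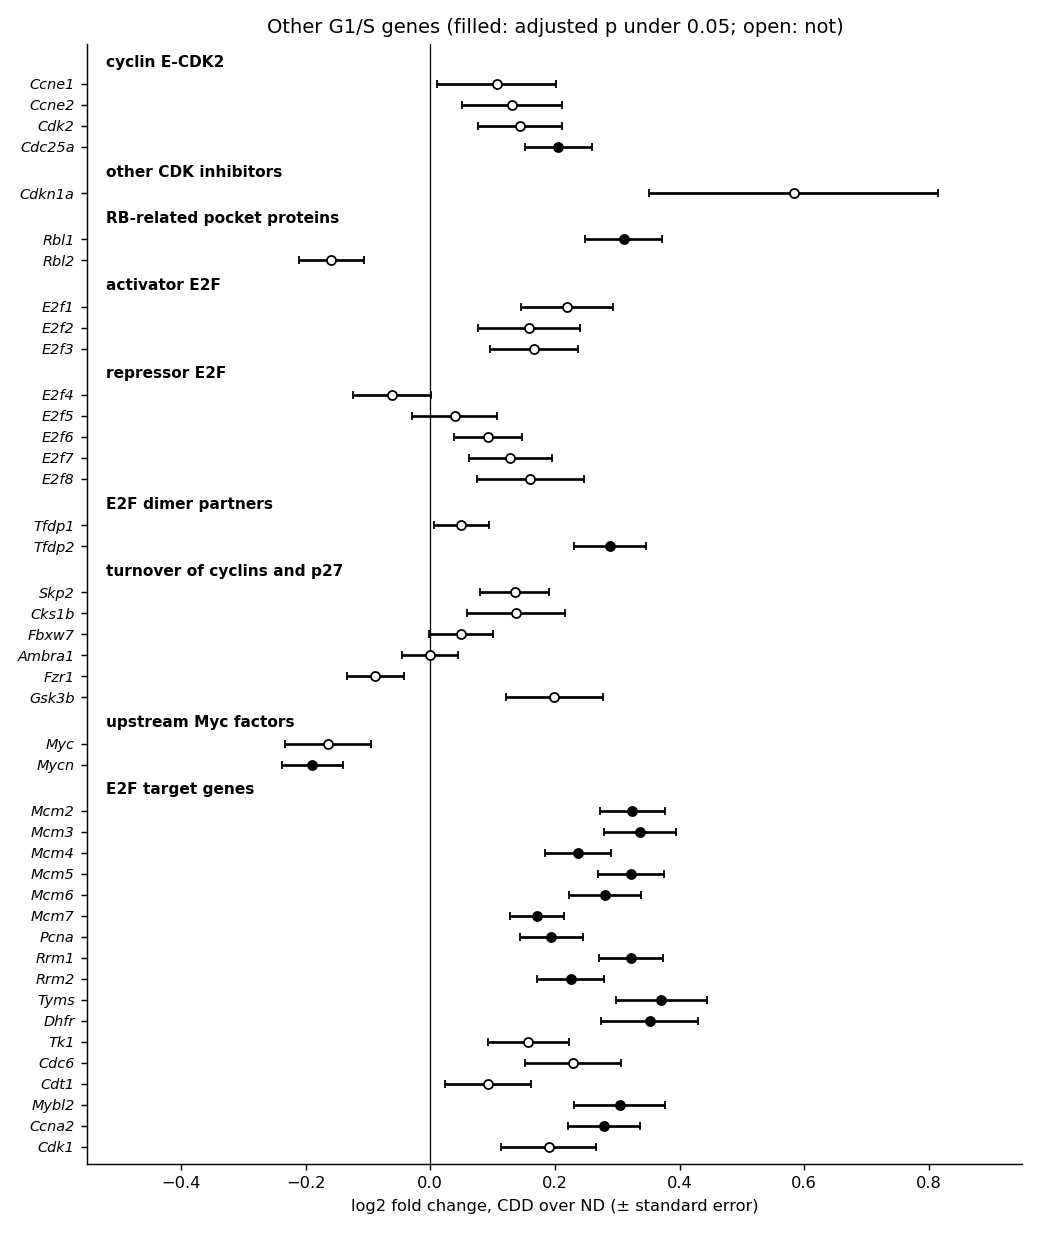
Log2 fold change of CDD over ND with its standard error (horizontal axis) for the 42 tested pathway genes, grouped by list; filled points were called by edgeR at an adjusted p-value under 0.05. The E2F target genes all lie above 0, and *Rbl2*, *E2f4*, *Fzr1*, *Myc* and *Mycn* lie below 0.

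Some markers of radial glia and intermediate progenitors were higher under CDD, as were *Ccnd1* and *Ccnd2*. The part of these markers in the result was not tested. Over all tested genes, 4.24% were called higher and 4.59% lower, and for 7.65% every CDD brain was above every ND brain. The 10 radial glia markers, which include *Sox2*, *Pax6* and *Nes*, summed to 1795 to 1964 CPM in CDD and 1608 to 1728 CPM in ND brains, without overlap, and 4 of the 10 were called higher and none lower. *Sox2* was not called (log2 fold change 0.093), nor were *Fabp7* (-0.043) and *Slc1a3* (0.029). Of 5 intermediate progenitor markers, 2 were called higher, and their sums overlapped (419 to 484 CPM in CDD, 398 to 444 CPM in ND). The 10 neuron markers summed to 6199 to 6858 CPM in CDD and 6320 to 6578 CPM in ND brains, with none called higher and 2 lower. Among other cells, 1 of 6 endothelial, 1 of 3 mural and 2 of 5 meningeal fibroblast markers were called lower and 1 of the meningeal markers higher. The summed CPM in CDD and ND brains was 241 to 256 and 255 to 269 for endothelium, 120 to 131 and 129 to 142 for mural cells, and 267 to 292 and 282 to 341 for meningeal fibroblasts. None of 4 choroid plexus and 4 microglia markers was called by edgeR (DESeq2 called 1 choroid plexus marker higher, and at an unadjusted p under 0.05 this was 1 higher and 2 microglia markers lower), at 172 to 476 and 271 to 315 CPM and at 35.6 to 39.5 and 38.7 to 44.8 CPM. Of 8 erythroid markers 2 were called higher, both of them embryonic globin genes, with log2 fold changes of 2.24 and 1.67 (adjusted p = 0.00651 and 0.0208 with edgeR) and no overlap between diets. A further embryonic globin gene of the list, *Hbb-bh1*, held 7 to 31 reads in a brain, overlapped between diets and was not called (log2 fold change 0.91, adjusted p = 0.141 with edgeR). The 2 adult globin genes of the list, which make up most of its summed CPM, had log2 fold changes of -0.64 and -0.84, overlapped between diets and were not called. The sum of the list was 668 to 1244 CPM in CDD and 721 to 2515 CPM in ND brains. None of these markers was at 0 in a whole group, whereas 7 of the 14 Hox genes were at 0 in all ND brains.

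The profiles over the 8 brains nearest to those of *Ccnd1*, *Ccnd2* and *Cdkn1c* were looked up among 10719 other genes whose mean reached 10 CPM, by the root mean square difference of log2 CPM centred on each gene's mean. Such a profile holds the difference between diets itself, so genes with a similar fold change lie near. The neighbours are therefore no separate evidence, and a link of function was not tested. Nearest to *Ccnd1* were *Pola1* (0.063), *Melk* (0.071) and *Dach1* (0.071), where the median gene was at 0.27. Their log2 fold changes were 0.47, 0.38 and 0.44. *Pola1* encodes the catalytic subunit of the polymerase that primes DNA replication. Nearest to *Ccnd2* were *Sema5a* (0.039), *Mki67* (0.042) and *Aspm* (0.044), where the median was 0.24. Their log2 fold changes were 0.34, 0.41 and 0.39. *Mki67* encodes the proliferation antigen Ki-67 and *Aspm* a spindle pole protein. Nearest to *Cdkn1c* were *Stk39* (0.044), *Trim36* (0.045) and *Ednrb* (0.048), where the median was 0.19. Their log2 fold changes were 0.24, 0.22 and 0.22.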

How the data were processed

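Poly-A RNA of 8 whole brains was sequenced, and the submitters' processing notes list HISAT2 2.0.5, featureCounts 1.5.0-p3 and DESeq2 1.20.0. The genome build is not given in the sources used here. The deposited table holds each brain's unscaled counts per gene and, beside them, the authors' FPKM values made from size-factor scaled counts and the listed gene length. Size-factor scaled counts, group means and the authors' own fold changes and p-values were not used, nor were shorter lists of genes picked by them. Library totals were 31770217 to 43121170 counts.

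Counts were filtered with filterByExpr, scaled by TMM and tested with edgeR 4.0.16 (robust quasi-likelihood test, diet as the only term, R 4.3.3), with Benjamini-Hochberg adjustment over all 19367 genes and a threshold of 0.05. The test was checked on simulated data. CPM are relative to the scaled library, and standard errors are the log2 fold change over the square root of F. Every pair of brains of 1 diet differed by more than sampling noise (chi-square per degree of freedom 3.76 to 22.5). P-values measure only the spread between these brains, which may be technical. Alternatives were DESeq2 1.42.0, RLE and upper-quartile scaling, other filters on low counts, an adjusted p-value of 0.01, the replicate number as a block and each brain left out. The members and lists were chosen with earlier results of these data known. Named are the members, pathway genes past the threshold or, in a list with none, the one of highest CPM, the 3 E2F targets of smallest p-value, and the 3 nearest profiles of *Ccnd1*, *Ccnd2* and *Cdkn1c*. Some further genes are named as examples of list members that were not called, as are E2F targets whose call was lost with a brain left out. Promoter windows are from RefSeq, GRCm38.p6.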

Additional observations from a re-analysis of the deposited data

Results flagged for a closer look

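In 74 groups of 4 brains, the distance of the highest or lowest brain from its nearest neighbour was compared with the range of the group, and 3 of them had 1 brain well apart, where chance at 1 in 20 gives about 3.7. *Ccnd2* was at 842 CPM in CDD replicate 4, against 631 to 656 CPM in the other CDD brains. The summed FPKM of the D-type cyclins, which is mostly *Ccnd2*, was 109 in the same brain, against 86.1 to 86.7. The summed CPM of the Hox genes was 127 in CDD replicate 2, against 0.163 to 2.87 in the other CDD brains.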

How the results depend on the processing

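*Ccnd1* was called in all 15 alternatives and *Ccnd2* in 14, with the exception of an adjusted p-value under 0.01, where 1 of the 10 genes was called. The called members numbered 2 to 4 with each brain left out (4 without CDD replicate 3) and 3 with DESeq2, and none was called lower. Of all genes, 1710 were called, 822 higher and 888 lower. With each brain left out this was 471 to 2495, 204 to 1222 higher and 267 to 1273 lower, with 688 without ND replicate 1, 471 without ND replicate 3 and 615 without ND replicate 4. An adjusted p-value under 0.01 left 477 genes, 211 higher and 266 lower. Of the other pathway genes, 17 were called, 11 to 19 with a brain left out (11 without ND replicate 1, 3 or 4) and 11 at 0.01. Of these, 1 was lower, 0 to 2 with a brain left out, 2 with DESeq2 and 0 at 0.01. The log2 fold change turned negative for *Ccnd3* without CDD replicate 1, CDD replicate 2 or ND replicate 4 (range -0.015 to 0.029 with each brain left out) and for *Cdkn2c* without CDD replicates 1 or 4 or ND replicates 1 or 3 (-0.036 to 0.061). The share of *Ccnd2* in CDD minus that in ND brains was 0.10 percentage points and lay between -0.72 and 0.81 with a brain left out, and the difference in the log2 ratio of *Cdk6* to *Cdk4* was 0.065 and lay between -0.0097 and 0.11. The cause of these changes was not tested. Same-numbered brains of the diets had deviations correlated at 0.10, -0.13, 0.12 and 0.23. For CDD replicates 1, 3 and 4 the best correlated ND brain was the one of the same number, and for CDD replicate 2 it was ND replicate 4. As the correlations were low, the numbers were not taken as pairs, and whether they mark pairs was not tested. With the replicate block, 1812 genes were called, 3 of the 10 genes among them, the third being *Cdkn1c* (log2 fold change 0.25).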

Other observations

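CDD replicate 4 was the highest of the 8 brains for 5 of the 10 genes (*Ccnd1*, *Ccnd2*, *Cdk6*, *Cdkn1b* and *Rb1*) and the lowest for 2 (*Ccnd3* and *Cdkn2d*). Over all tested genes it was the highest brain in 21.7% and the lowest in 23.7%, more often than any other brain in either direction. Without it, the log2 fold change was 0.47 for *Ccnd1*, 0.29 for *Ccnd2* and 0.07 for *Rb1*, and *Ccnd1* and *Ccnd2* were still called.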
